A study of Mus musculus with 386 samples.

Results

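The genes described here are 10 of the 18820 genes measured on the arrays, and all are known to be induced by type I interferons: Ifi27, Usp18, Oasl2, Irf7, Xaf1, Mx2, Bst2, Trim30a, Isg15 and Ifit1. They were chosen by name, with earlier results of these data known. Each was represented by its transcript cluster with 1 gene symbol, the array's unit of measurement, of which each of the 10 genes had 1. RNA from brain, kidney, liver and lung of mice 23 days old was hybridised to Affymetrix Mouse Gene 1.1 ST arrays. The mice belonged to the inbred strains CAST, PWK and WSB and to the 6 reciprocal F1 crosses made from them, females and males, bred at one university within a few generations of commercially obtained founders. The first strain of a cross name is the dam, so a CASTxPWK animal had a CAST mother and a PWK father. The labels give no infection, interferon treatment or other agent for any group. The inbred strains stood for 3 lineages, and a difference between them belongs to the strains as kept there. The 111 animals gave 386 arrays, 85 from brain, 102 from kidney, 101 from liver and 98 from lung, with 6 to 13 animals for each cross and tissue.

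Type I interferons are cytokines released when cells sense foreign nucleic acid. They bind a common receptor, whose kinases activate transcription factors that bind interferon-stimulated response elements in the promoters of many genes. Many of these genes restrict viruses, and some amplify or end the signal. A low level of interferon signalling exists in healthy tissue, so the genes are also expressed in animals that were not challenged.

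The promoters of some members are shown because the response element is the sequence through which interferon acts. Windows of 300 bases, from 250 before to 50 after the transcription start, were taken from RefSeq (GRCm38.p6) and exist here for 7 of the 10 members, with 8 windows in all since Trim30a has 2. Both strands were searched for GAAANNGAAA, the core of the response element, which reads TTTCNNTTTC on the other strand. It was found in 3.44% of 32851 windows of this length. Capitals mark its matches, and overlapping matches are merged into a single run of capitals. The windows of Ifit1 (chr19:34640639-34640938, plus strand), Bst2 (chr8:71537423-71537722, minus strand) and Trim30a (chr7:104465144-104465443, minus strand) read as follows.

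Ifit1: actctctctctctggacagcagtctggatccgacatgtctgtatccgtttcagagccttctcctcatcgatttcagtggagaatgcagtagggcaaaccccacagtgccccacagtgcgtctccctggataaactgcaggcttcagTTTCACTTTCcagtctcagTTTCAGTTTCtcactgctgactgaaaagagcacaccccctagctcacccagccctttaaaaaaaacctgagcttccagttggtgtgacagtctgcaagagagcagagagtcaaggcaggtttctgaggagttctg

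Bst2: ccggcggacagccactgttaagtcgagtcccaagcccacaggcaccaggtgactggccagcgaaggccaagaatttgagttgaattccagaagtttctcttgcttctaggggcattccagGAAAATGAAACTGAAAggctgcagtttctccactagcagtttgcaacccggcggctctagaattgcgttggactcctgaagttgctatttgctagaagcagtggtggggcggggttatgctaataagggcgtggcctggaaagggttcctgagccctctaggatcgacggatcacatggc

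Trim30a: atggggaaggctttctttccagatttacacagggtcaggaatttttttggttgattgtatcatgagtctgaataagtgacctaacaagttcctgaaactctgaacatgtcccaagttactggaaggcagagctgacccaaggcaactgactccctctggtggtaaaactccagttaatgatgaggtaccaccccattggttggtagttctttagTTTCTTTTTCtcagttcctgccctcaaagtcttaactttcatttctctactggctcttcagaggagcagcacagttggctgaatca

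The Ifit1 window held 2 separate matches, the last ending 76 bases before the start site. In the Bst2 window 2 overlapping matches spanned 16 bases, and in Trim30a 1 match ended 27 bases before the start. The Isg15 window had 3 overlapping matches over 22 bases, ending 57 bases before the start. No match was found in the windows of Irf7 (chr7:141266375-141266674, minus strand), Oasl2 (chr5:114896684-114896983, plus strand) and Xaf1. The Irf7 and Oasl2 windows are shown because these genes gave the most regular F1 result below.

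Irf7: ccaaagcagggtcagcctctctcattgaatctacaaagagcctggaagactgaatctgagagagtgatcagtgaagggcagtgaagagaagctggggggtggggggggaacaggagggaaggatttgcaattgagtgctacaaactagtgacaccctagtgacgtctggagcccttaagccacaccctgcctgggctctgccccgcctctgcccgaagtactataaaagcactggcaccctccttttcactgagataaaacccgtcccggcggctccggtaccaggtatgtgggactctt

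Oasl2: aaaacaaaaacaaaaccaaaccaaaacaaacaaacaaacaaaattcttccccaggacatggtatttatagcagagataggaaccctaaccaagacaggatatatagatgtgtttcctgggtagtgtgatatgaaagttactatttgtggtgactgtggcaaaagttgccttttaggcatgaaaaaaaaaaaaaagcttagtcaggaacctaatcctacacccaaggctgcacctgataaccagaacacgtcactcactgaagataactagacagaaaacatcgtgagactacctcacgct

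The tissue labels fit their defining markers, since 3 of 3 brain, 4 of 4 kidney, 4 of 4 liver and 4 of 4 lung markers were highest in the labelled tissue. Medians of the arrays lay between 5.89 and 6.36 log2 units. In 2 arrays the signals of Xist, expressed from the inactive X, or of the Y-linked Eif2s3y went against the labelled sex. A PWKxWSB liver (replicate 8) with a male label gave an Xist signal of 10.70 and an Eif2s3y signal of 4.53, both against that label. A PWKxCAST brain (replicate 9) with a female label gave 3.98 for Xist, against the label, and 3.83 for Eif2s3y. Without these arrays each count of members called in brain and liver given below was the same number. Animal numbers in the labels formed 2 to 5 runs of neighbouring numbers within each cross, and every run held a single cross. What a run stands for, a litter or a day for example, the labels do not say.

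Signals are log2 values, so a difference of 1 is a factor of 2. In each tissue a gene was tested where its mean lay at or above the 40th percentile of all genes, which left 11292 genes. Of the 10 members, 2 passed in brain (Ifi27 and Oasl2), 8 in kidney, 9 in liver and 9 in lung. Isg15 passed in no tissue and Ifit1 passed in liver and lung. For members below the filter only values are given in the main comparisons within a tissue. The tests between tissues include values of such members. A comparison is referred to as called when limma's p-value, adjusted by the Benjamini-Hochberg method over all genes of the tissue and contrast, was under 0.05. Arrays are separate animals.

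Averaged over all crosses, every member had its lowest mean in brain. Ifi27 averaged 7.67 in brain against 9.0 in kidney, 8.76 in liver and 9.36 in lung. Usp18 averaged 5.13 in brain, with 7.16 in kidney, 8.52 in liver and 8.71 in lung. Lung was highest for Ifi27, Usp18, Oasl2, Xaf1, Trim30a and Ifit1, and liver for Irf7, Mx2, Bst2 and Isg15. These are bulk tissues, so more expressing cells and more RNA per cell cannot be told apart.

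**Figure D1:**
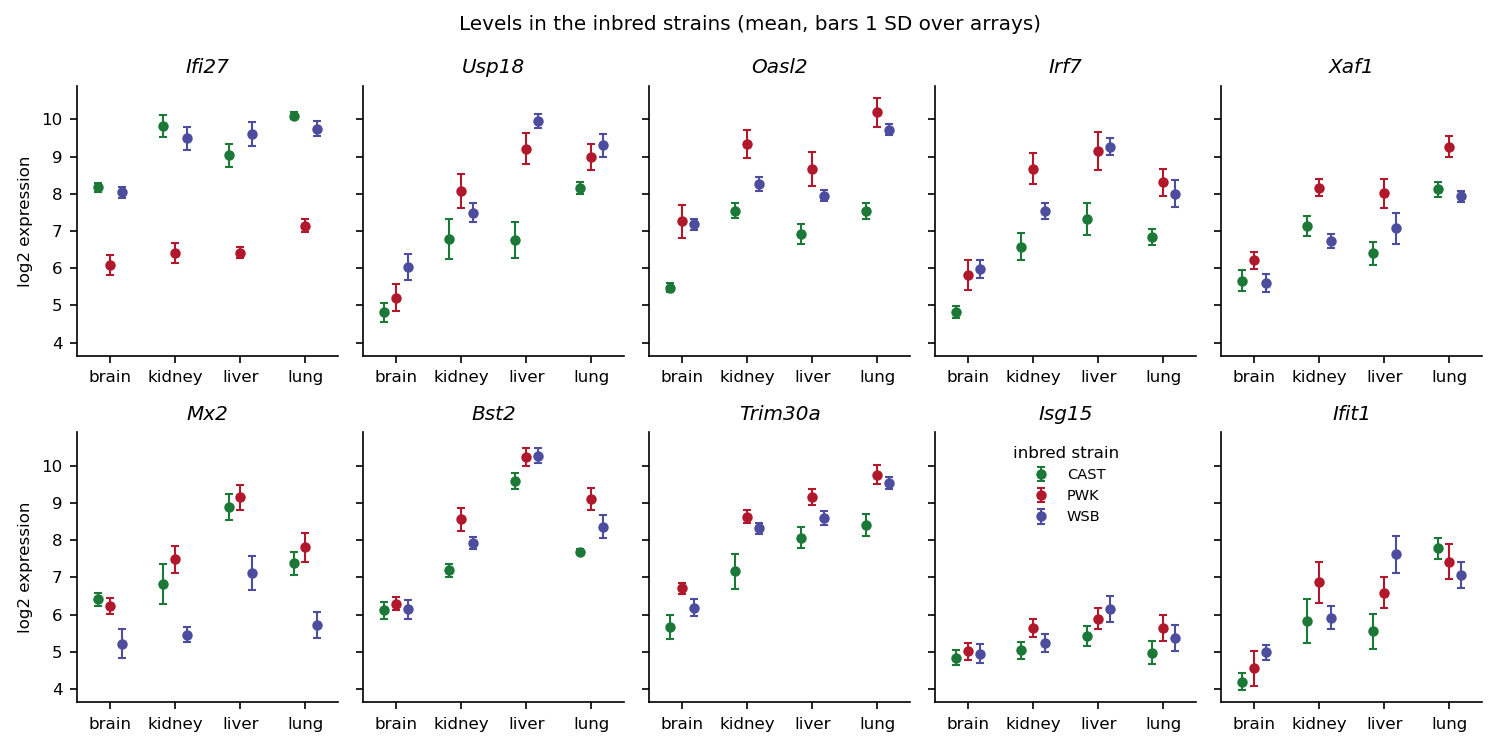
Log2 expression (vertical axis) of the 10 members in 4 tissues (horizontal axis) of the inbred strains CAST, PWK and WSB, as mean with bars of 1 SD over 6 to 13 arrays. Usp18, Oasl2 and Irf7 sit lowest in CAST in each tissue, Ifi27 is lowest in PWK and Mx2 in WSB.

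The inbred strains differed in most members. Of 3 contrasts per member, 4 of 6 were called in brain, 24 of 24 in kidney, 24 of 27 in liver and 27 of 27 in lung. Over all genes tested, the share of inbred contrasts called was 44.6% in brain, with 60.2% in kidney, 54.1% in liver and 61.3% in lung, so strain differences were common on these arrays. Beside the counts stand the sizes, which reached 3 log2 units for Ifi27 and Usp18. The signal, not the transcript itself, was compared, and the sequences of the probes were not used here.

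Means of listed immune cell markers also differed between the inbred strains, as signals of bulk tissue and not counts of cells. The mean of 6 plasmacytoid dendritic cell markers in kidney, of which 3 passed the filter there, was 6.93 in PWK (6.76 to 7.06 over arrays). It lay above all kidneys of CAST (6.39, from 6.30 to 6.51) and WSB (6.31, from 6.09 to 6.56). The mean of 5 T cell markers in kidney was 5.71 in PWK (5.59 to 5.93), 4.89 in CAST (4.72 to 5.59) and 5.30 in WSB (4.84 to 6.16). In lung, 4 B cell markers averaged 8.77 in CAST (8.01 to 9.22), 7.20 in PWK (6.23 to 7.72) and 7.71 in WSB (7.20 to 8.24). Of these, 3 of 3 tested were called higher in CAST than in either strain. Over all genes 61.3% of inbred contrasts in lung were called, in either direction. Neutrophil markers in lung were likewise highest in CAST, at 7.10 (6.68 to 7.33) against 6.21 in PWK (5.72 to 6.90). Natural killer cell markers in lung were lowest in CAST, at 4.27 (4.04 to 4.43) against 5.09 in PWK (4.66 to 5.58). The means here take in every matched marker, also those below the filter. The T cell means in kidney lay below the filter's level there, 6.27. In lung, where it was 6.37, the natural killer cell means and the PWK neutrophil mean lay below it. The macrophage marker mean in liver ran from 9.29 to 9.54 in CAST, from 9.11 to 9.60 in PWK and from 9.42 to 9.75 in WSB. The part of these cell types in the strain differences was not tested.

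Irf7, a transcription factor that amplifies type I interferon production, was lowest in CAST. In kidney its level in CAST ran from 5.98 to 7.14 with a median of 6.64. In PWK kidney it ran from 8.17 to 9.48 (median 8.62), and in WSB kidney from 7.20 to 7.85 (median 7.56). The 3 ranges did not overlap. CAST lay below PWK by -2.11 ± 0.12 (SE) log2 units in kidney (limma adjusted p = 2.28e-30), -1.88 ± 0.15 in liver (4.32e-19) and -1.47 ± 0.10 in lung (5.95e-23). Against WSB the differences were -0.98 ± 0.12, -1.98 ± 0.14 and -1.14 ± 0.10 in the same tissues, all called. In brain, where Irf7 did not pass the filter, CAST had 4.81 ± 0.16 (SD, n = 8), PWK 5.82 ± 0.40 (n = 6) and WSB 5.98 ± 0.24 (n = 11).

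Usp18, the protease that removes ISG15 from proteins and dampens the interferon receptor, showed the largest gap in liver. Its CAST livers ran from 5.92 to 7.54 (median 6.75), its PWK livers from 8.68 to 9.92 (median 9.21) and its WSB livers from 9.53 to 10.24 (median 9.96). Every CAST liver was below every PWK and WSB liver, while the PWK and WSB ranges overlapped. The difference of CAST from WSB was -3.24 ± 0.13 in liver (limma adjusted p = 7.78e-39), but -0.72 ± 0.14 in kidney (9.94e-06) and -1.13 ± 0.10 in lung (1.57e-17). PWK and WSB changed order between tissues. PWK was higher in kidney by 0.59 ± 0.14 (limma adjusted p = 0.000166) and lower in liver by -0.76 ± 0.14 (2.88e-06).

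Oasl2, an oligoadenylate synthetase-like protein with a ubiquitin-like part, was lowest in CAST in the 4 tissues. Lung levels ran from 7.12 to 7.87 in CAST (median 7.55), from 9.53 to 10.75 in PWK (median 10.19) and from 9.52 to 9.94 in WSB (median 9.75). All CAST lungs were below the other strains, whose ranges overlapped. The CAST minus PWK difference was -2.66 ± 0.09 in lung (limma adjusted p = 2.54e-43), -1.85 ± 0.13 in brain, -1.80 ± 0.10 in kidney and -1.77 ± 0.11 in liver, each called. PWK exceeded WSB by 1.07 ± 0.09 in kidney (4.59e-18), 0.73 ± 0.10 in liver (2.88e-09) and 0.49 ± 0.09 in lung (1.05e-06), whereas the difference in brain was 0.15 ± 0.12 (0.311).

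Xaf1, a pro-apoptotic antagonist of the inhibitor XIAP, was highest in PWK. Its PWK kidneys ran from 7.78 to 8.60 (median 8.22), above all CAST kidneys (6.66 to 7.50, median 7.20) and all WSB kidneys (6.46 to 7.01, median 6.76). PWK minus WSB was 1.43 ± 0.08 in kidney (limma adjusted p = 6.88e-31), 0.95 ± 0.12 in liver and 1.35 ± 0.07 in lung (2.46e-30). CAST against WSB had no common direction, with 0.38 ± 0.08 in kidney (1.78e-05), -0.70 ± 0.12 in liver (1.64e-07) and 0.17 ± 0.08 in lung (0.0438). The lung call was lost without any 1 of 11 arrays, with an adjusted p of up to 0.147 (CASTxCAST replicate 3 left out), and with each array's median subtracted (0.142).

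Trim30a, a tripartite-motif ubiquitin ligase, and Bst2, which encodes tetherin and holds budding virus particles at the cell surface, were both low in CAST. Trim30a in kidney ran from 6.55 to 7.76 in CAST (median 7.11), from 8.31 to 8.93 in PWK (median 8.67) and from 8.06 to 8.51 in WSB (median 8.34). CAST did not overlap either strain. The Trim30a difference of CAST from PWK was -1.50 ± 0.09 in kidney (limma adjusted p = 1.17e-28), -1.11 ± 0.08 in liver and -1.39 ± 0.08 in lung. Bst2 in lung ran from 7.56 to 7.81 in CAST (median 7.68), from 8.56 to 9.50 in PWK (median 9.23) and from 7.69 to 8.74 in WSB (median 8.41). CAST was below all PWK lungs and overlapped WSB. Its difference from PWK was -1.42 ± 0.09 in lung (5.06e-26), -1.38 ± 0.08 in kidney (3.46e-30) and -0.65 ± 0.09 in liver (1.02e-09). In liver PWK and WSB gave a Bst2 difference of -0.02 ± 0.09 (0.888).

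Ifit1, which binds viral RNA that lacks the methyl marks of host caps, changed its strain order between tissues. In liver it ran from 4.73 to 6.15 in CAST (median 5.63), from 6.13 to 7.33 in PWK (median 6.55) and from 6.97 to 8.46 in WSB (median 7.72). In lung CAST was the highest strain, with 7.34 to 8.17 (median 7.82), against 6.65 to 8.30 in PWK (median 7.36) and 6.26 to 7.56 in WSB (median 7.17). CAST livers were all below WSB livers, and the lung ranges overlapped. CAST minus WSB was -2.09 ± 0.17 in liver (limma adjusted p = 1.65e-19) and 0.73 ± 0.12 in lung (9.67e-08), and CAST minus PWK was -1.06 ± 0.19 in liver (1.2e-06) and 0.34 ± 0.12 in lung (0.00824).

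Isg15 encodes a ubiquitin-like protein, and it stood low in every tissue, with means between 4.96 in brain and 5.75 in liver. Its cluster may not measure the gene. The gene lies on chromosome 4, but 9 of the 10 neighbouring clusters in the array's numbering belong to genes of chromosome 17. The gene table places the pseudogene Gm9706 there, between Abcc10 and Slc22a7, the genes of the adjoining clusters. The Isg15 values are therefore uncertain. In liver they ran from 5.08 to 5.77 in CAST (median 5.36), from 5.67 to 6.39 in PWK (median 5.77) and from 5.58 to 6.77 in WSB (median 6.15), and all ranges overlapped.

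Ifi27, a small membrane protein of mitochondria and the nuclear envelope, differed from the other members in that PWK was its lowest strain. In kidney it lay between 5.88 and 6.84 in PWK (median 6.36), between 9.23 and 10.17 in CAST (median 9.87) and between 9.13 and 10.19 in WSB (median 9.42). PWK did not overlap either strain, in any of the 4 tissues. CAST minus PWK was 3.42 ± 0.10 in kidney (limma adjusted p = 3.13e-52), 2.18 ± 0.11 in brain (2.73e-29), 2.61 ± 0.12 in liver and 2.95 ± 0.07 in lung (2.2e-55). CAST and WSB differed by 0.33 ± 0.10 in kidney (0.00191), 0.34 ± 0.07 in lung (2.39e-05) and -0.58 ± 0.11 in liver (2.58e-06), a change of sign, and by 0.16 ± 0.09 in brain (0.139).

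Mx2, a dynamin-like antiviral GTPase, was lowest in WSB. Its WSB livers ran from 6.24 to 7.94 (median 7.29), below every CAST liver (8.55 to 9.74, median 8.91) and every PWK liver (8.67 to 9.67, median 9.11). CAST and PWK overlapped. PWK minus WSB was 2.03 ± 0.13 in kidney (limma adjusted p = 9.28e-27), 2.03 ± 0.14 in liver (9.87e-24) and 2.13 ± 0.11 in lung (6.93e-32). CAST minus WSB was 1.35 ± 0.13, 1.75 ± 0.13 and 1.67 ± 0.11 in these tissues, all called. CAST against PWK was called in kidney (-0.68 ± 0.13, 3.31e-06) and lung (-0.46 ± 0.11, 0.000259), and was -0.28 ± 0.14 in liver (0.098).

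**Figure D2:**
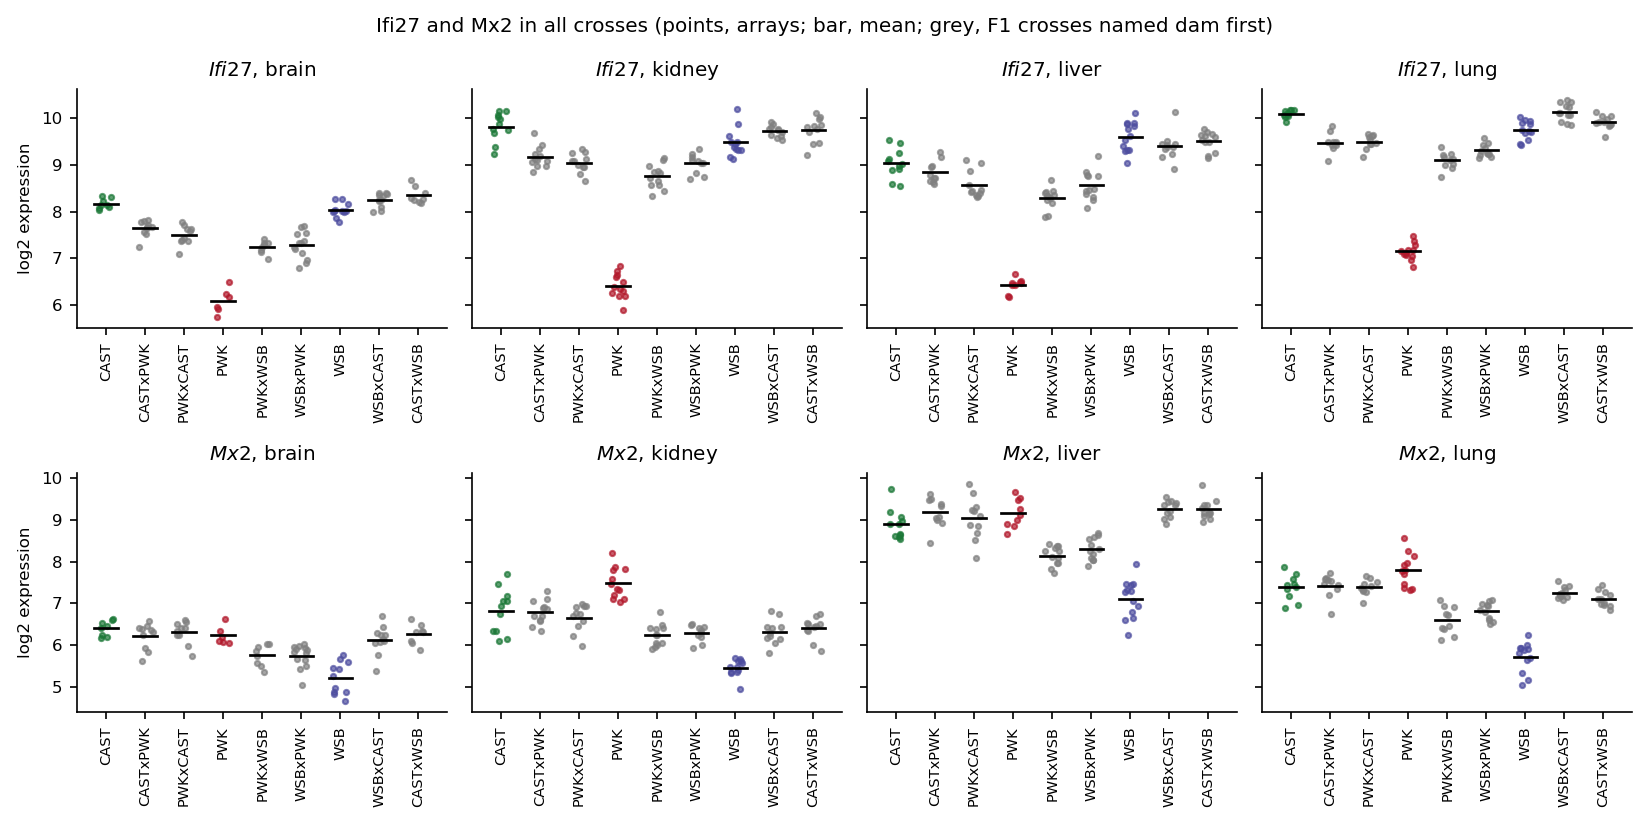
Log2 expression (vertical axis) of Ifi27 (upper row) and Mx2 (lower row) on single arrays of the 9 crosses (horizontal axis) in 4 tissues; points are arrays, coloured for inbred strains and grey for F1, and bars are means. Ifi27 is lowest in PWK with its F1 crosses nearer to the high parent, and in liver the F1 of CAST and WSB have Mx2 at 8.90 to 9.84, above all WSB livers.

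The F1 animals were compared with the mid-parent value, the mean of both inbred parents on the log2 scale, using both reciprocal crosses together. The 3 pairs share inbred arrays, 2 pairs to each strain, so their results are not independent. Since the members were chosen with earlier results of these data known, their counts beside the shares of all genes are descriptive. Below the mid-parent value, 2 of 6 member comparisons were called in brain (8.59% of all genes' comparisons), 12 of 24 in kidney (18.5%), 8 of 27 in liver (10.4%) and 9 of 27 in lung (13.1%). Above it, 3 of 6 were called in brain (13.4%), 3 of 24 in kidney (19.4%), 5 of 27 in liver (9.96%) and 3 of 27 in lung (15.9%). The calls below came from Usp18, Oasl2, Irf7, Xaf1, Trim30a, Mx2 and Ifit1. The calls above came from Ifi27 in 9 cases, Mx2 in 3 and, in liver, Ifit1 and Usp18 in 1 case each. With the run as a random block, 7 of 24 were called below in kidney and 4 of 27 in lung, and 1 of 6 above in brain. In females alone 2 of 24 were called below in kidney, 5 of 27 in liver and 5 of 27 in lung, and in males alone 11, 10 and 9. The sexes had similar numbers of arrays (51 female and 51 male in kidney, 49 and 52 in liver, 50 and 48 in lung).

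The pairs differed in their counts. For PWK and WSB, 1 of 2 members was called below the mid-parent value in brain (4.04% of all genes), 5 of 8 in kidney (18.8%), 5 of 9 in liver (8.31%) and 5 of 9 in lung (14.5%). For CAST and PWK, it was 1 of 2 in brain (7.70%), 6 of 8 in kidney (16.6%), 3 of 9 in liver (11.3%) and 4 of 9 in lung (9.43%). For CAST and WSB, it was 0 of 2 in brain (14.0%), 1 of 8 in kidney (20.0%), 0 of 9 in liver (11.5%) and 0 of 9 in lung (15.6%). Where limma called 0 of these, 0 also had an unadjusted p under 0.05 below the mid-parent value. Whether the pairs differ from each other was not tested.

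**Figure D3:**
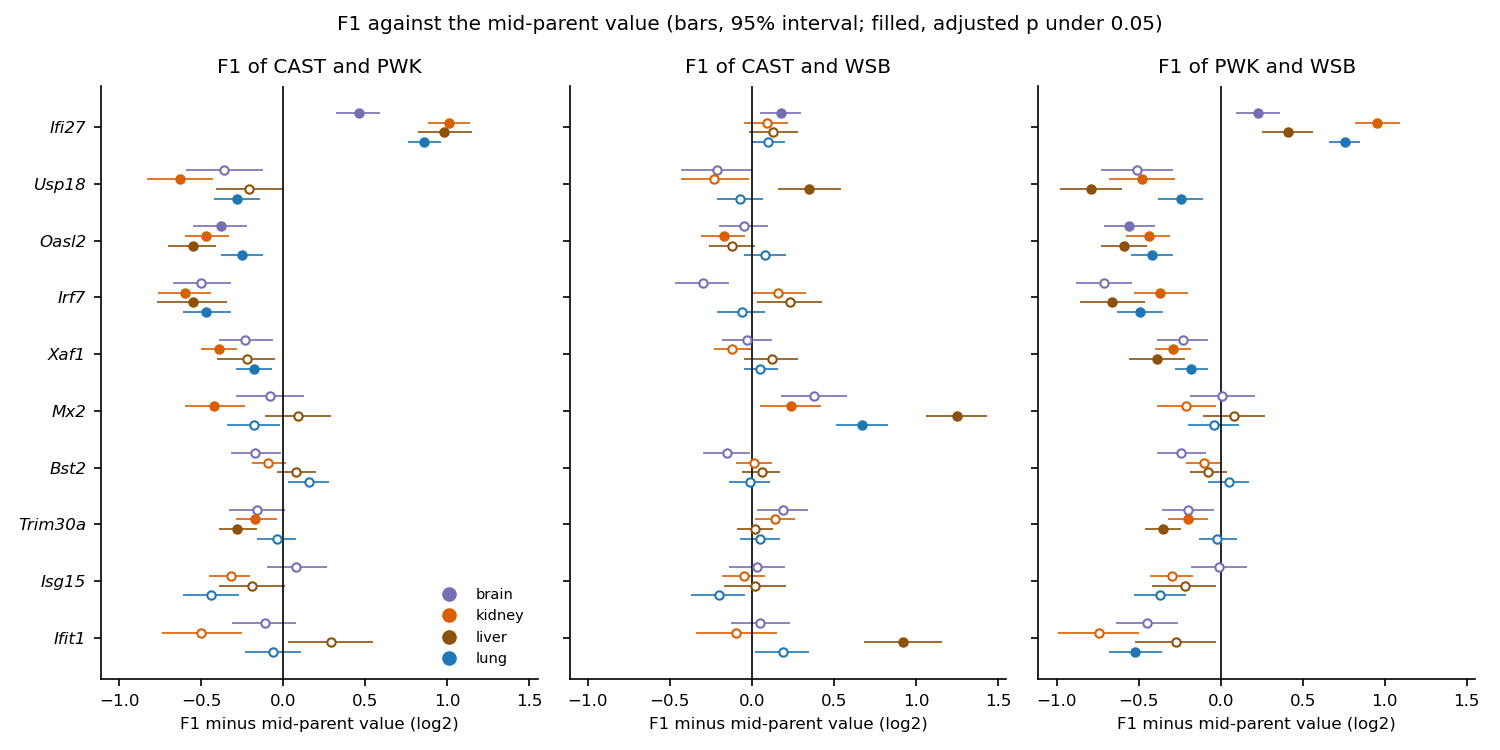
Difference of the F1 from the mid-parent value in log2 units (horizontal axis) for the 10 members (vertical axis) and 3 pairs of strains (panels), coloured by tissue, with bars for the 95% interval. Filled points have an adjusted p under 0.05; open points were not called or, for members below the filter, not tested. Oasl2 and Irf7 lie left of 0 in 4 tissues for CAST and PWK and for PWK and WSB, Ifi27 lies right of 0 for the same pairs, and Mx2 reaches 1.25 in liver for CAST and WSB.

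Oasl2 was below the mid-parent value in the F1 of PWK and WSB in all 4 tissues. In brain the 21 F1 arrays ran from 6.29 to 7.0 (median 6.75), against 6.51 to 7.69 in PWK (median 7.30) and 6.92 to 7.44 in WSB (median 7.19). All 21 were below the mid-parent value, though they overlapped both parents. The difference from the mid-parent value was -0.56 ± 0.08 in brain (limma adjusted p = 2.18e-07), -0.44 ± 0.07 in kidney (1.61e-07), -0.59 ± 0.07 in liver (1.02e-10) and -0.42 ± 0.06 in lung (2.25e-07). Brain Oasl2 was called below both parents, by -0.63 ± 0.11 from PWK (5.27e-06) and -0.48 ± 0.08 from WSB (3.68e-06). In liver it was likewise below PWK (-0.96 ± 0.09) and WSB (-0.23 ± 0.08, 0.0153). In kidney the F1 stood at 8.35 ± 0.26 (SD, n = 22), near the lower parent WSB at 8.27 ± 0.19 (n = 12) and below PWK at 9.34 ± 0.38 (n = 12).

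The F1 of CAST and PWK also had Oasl2 below the mid-parent value. In lung the 20 F1 arrays ran from 8.19 to 8.86 (median 8.64), above every CAST lung and below every PWK lung. All 20 were below the mid-parent value, and their mean lay at 40.1% of the way from CAST to PWK. The difference was -0.25 ± 0.07 in lung (limma adjusted p = 0.00346; 0.067 with runs as a random block), -0.38 ± 0.08 in brain (0.000695), -0.47 ± 0.07 in kidney (7.06e-08) and -0.55 ± 0.07 in liver (5.4e-09). In liver the F1 mean lay at 17.5% of the way from CAST to PWK, and all 21 arrays were below the mid-parent value. Females alone gave no call in brain (-0.26, adjusted p = 0.211 by limma), kidney (-0.29, 0.0597) or lung (-0.20, 0.135).

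Irf7 was also below the mid-parent value in these pairs. In the F1 of PWK and WSB the 24 livers ran from 7.73 to 9.19 (median 8.54), against 8.40 to 9.95 in PWK (median 9.07) and 8.92 to 9.58 in WSB (median 9.30). All 24 were below the mid-parent value, with overlap to both parents. The difference was -0.66 ± 0.10 in liver (limma adjusted p = 4.09e-07), -0.49 ± 0.07 in lung (6.6e-08) and -0.37 ± 0.08 in kidney (0.000223; 0.0711 with runs as a random block, and 0.134 with WSBxPWK as the only F1 cross). It was called below both parents in liver (-0.61 ± 0.13 from PWK, -0.71 ± 0.12 from WSB) and in lung (-0.66 ± 0.09 from PWK, -0.32 ± 0.09 from WSB). In brain, untested, the F1 had 5.25 ± 0.22 (SD, n = 21) against 5.82 ± 0.40 in PWK (n = 6) and 5.98 ± 0.24 in WSB (n = 11). For CAST and PWK the differences were -0.60 ± 0.08 in kidney (1.08e-08), -0.55 ± 0.11 in liver (5.71e-05) and -0.47 ± 0.07 in lung (8.59e-07). The F1 means stood at 20.7%, 18.9% and 18.3% of the way from CAST to PWK in these tissues. Calls for Irf7 that were lost in females alone were kidney (-0.32, limma adjusted p = 0.0942) and liver (-0.28, 0.364) for CAST and PWK, and kidney for PWK and WSB (-0.19, 0.268).

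Usp18 in the F1 of PWK and WSB was below both parents in liver. The 24 F1 livers ran from 8.28 to 9.35 (median 8.83), all below every WSB liver and overlapping PWK. The difference from the mid-parent value was -0.79 ± 0.10 in liver (limma adjusted p = 3.16e-10), -0.48 ± 0.10 in kidney (9.8e-05) and -0.24 ± 0.07 in lung (0.00365). With runs as a random block this liver difference stayed called and the others did not (0.052 in kidney and 0.0948 in lung). The call of Usp18 below both parents in liver was lost with that block and in females alone. Against PWK alone the liver difference was -0.41 ± 0.13 (0.00855) and against WSB -1.17 ± 0.11 (1.99e-15). Among CAST and PWK crosses the 23 F1 kidneys ran from 6.20 to 7.15 (median 6.90), all below every PWK kidney, with a mean at the CAST level (6.79 in both). That difference from the mid-parent value was -0.63 ± 0.10 (9.76e-07). For PWK and WSB, the kidney (-0.35, limma adjusted p = 0.107) and lung (-0.23, 0.0768) calls of Usp18 were lost in females alone.

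Xaf1 in the F1 of PWK and WSB lay between its parents, nearer to the lower one. The 22 F1 kidneys ran from 6.51 to 7.49 (median 7.18), all below PWK and overlapping WSB. Their mean was at 29.7% of the way from WSB to PWK, and the difference from the mid-parent value was -0.29 ± 0.06 (limma adjusted p = 2.89e-05). It was -0.39 ± 0.08 in liver (0.000263; 0.0522 with runs as a random block) and -0.18 ± 0.05 in lung (0.005; 0.1 with runs). For CAST and PWK it was -0.39 ± 0.06 in kidney (3.57e-08), with all 23 F1 kidneys below the mid-parent value, and -0.18 ± 0.05 in lung (0.0113; 0.139 with runs). The liver value of -0.22 ± 0.09 was not called (0.0671). None of the 5 Xaf1 calls was made in females alone, with -0.14 in kidney (limma adjusted p = 0.206), -0.18 in liver (0.569) and -0.09 in lung (0.526) for PWK and WSB, and -0.21 in kidney (0.0973) and -0.07 in lung (0.623) for CAST and PWK. Males alone gave all 5, at -0.43, -0.60, -0.27, -0.58 and -0.29 in the same order.

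**Figure D4:**
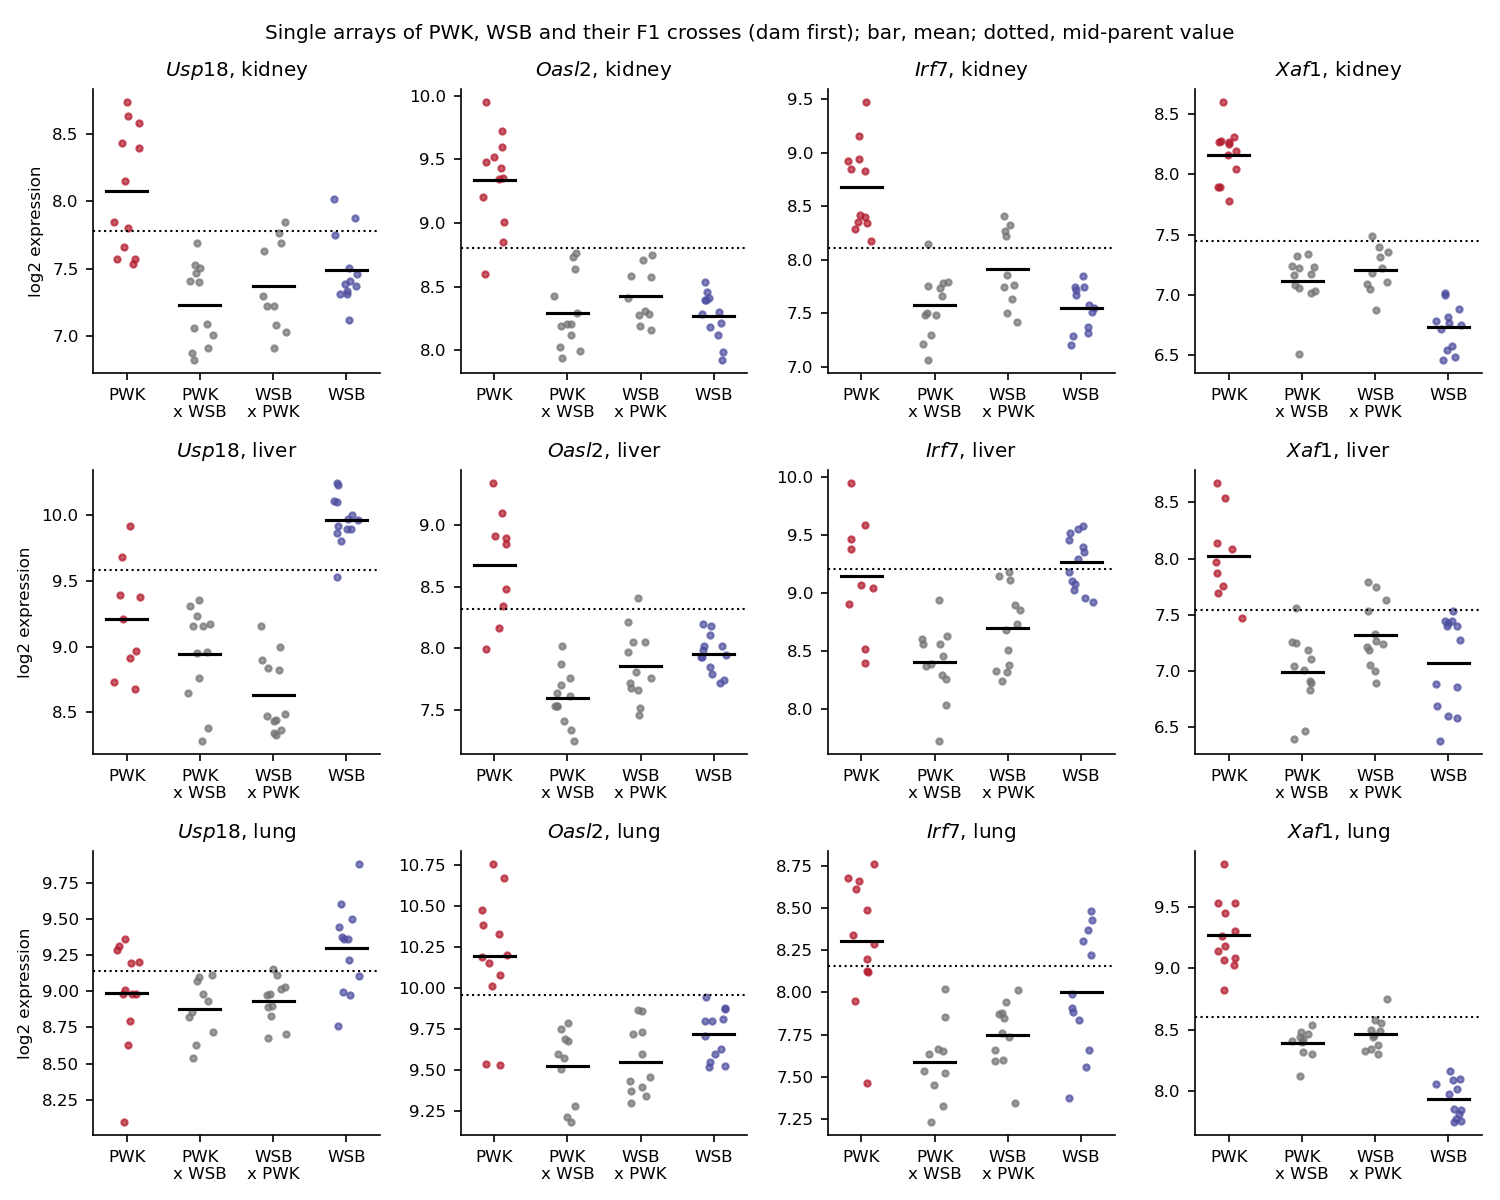
Log2 expression (vertical axis) of Usp18, Oasl2, Irf7 and Xaf1 on single arrays of PWK, the F1 crosses PWKxWSB and WSBxPWK, and WSB (horizontal axis) in kidney, liver and lung; bars are group means and the dotted line is the mid-parent value. Each F1 mean is below the dotted line, and in liver all 24 F1 arrays are below it for Usp18 and Irf7.

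The remaining members gave fewer calls below the mid-parent value. Trim30a in the F1 of PWK and WSB was lower by -0.35 ± 0.06 in liver (limma adjusted p = 8.92e-07), with 23 of 24 arrays below, and by -0.20 ± 0.06 in kidney (0.00629; 0.135 with runs as a random block). For CAST and PWK it was lower by -0.28 ± 0.06 in liver (0.000228) and -0.17 ± 0.06 in kidney (0.0279), the latter call being lost without CASTxCAST kidney replicate 3 (0.0894) or with runs (0.339). In lung its differences were -0.04 ± 0.06 and -0.02 ± 0.06 for these pairs, with 95% intervals from -0.16 to 0.08 and from -0.13 to 0.10. Ifit1 in the F1 of PWK and WSB had lungs from 6.19 to 7.29 (median 6.68), overlapping both parents. It was below the mid-parent value by -0.52 ± 0.08 (4.12e-07), below PWK by -0.72 ± 0.10 and below WSB by -0.33 ± 0.10 (0.00452). Mx2 was called below in the F1 of CAST and PWK in kidney alone among tissues (-0.42 ± 0.09, 0.000248). Of these, the calls lost in females alone were Trim30a in kidney (0.03) and liver (-0.10) and Mx2 in kidney (-0.18) for CAST and PWK, and Trim30a in kidney for PWK and WSB (-0.18), with limma adjusted p-values of 0.876, 0.568, 0.372 and 0.14. Bst2 was not called in any pair or tissue where it was tested, with differences from -0.10 to 0.16.

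Counted over pairs, members below both parents were 1 of 6 in brain (2.18% of all genes' comparisons), 0 of 24 in kidney (4.63%), 3 of 27 in liver (2.25%) and 2 of 27 in lung (2.81%). They were Oasl2 in brain, Usp18, Oasl2 and Irf7 in liver, and Irf7 and Ifit1 in lung, each in the F1 of PWK and WSB. In kidney, 0 of the 24 limma comparisons had unadjusted p-values under 0.05 below both parents. With the run as a random block, Oasl2 in brain and Irf7 in liver and lung were still called below both parents, while Usp18 and Oasl2 in liver and Ifit1 in lung were not. In females alone Oasl2 in brain was the only one called. In males alone the calls were Oasl2 in brain, Usp18 and Irf7 in liver and Oasl2, Irf7 and Ifit1 in lung, with Mx2 in kidney of the F1 of CAST and PWK besides. Above both parents were 0 of 6 in brain (1.93%), 0 of 24 in kidney (3.63%), 1 of 27 in liver (1.74%) and 0 of 27 in lung (2.65%), and where limma called 0, 0 had unadjusted p-values under 0.05.

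The member above both parents was Mx2 in liver of the F1 of CAST and WSB. The 23 F1 livers ran from 8.90 to 9.84 (median 9.22), above every WSB liver and overlapping CAST. They exceeded the mid-parent value by 1.25 ± 0.09 (limma adjusted p = 1.24e-20), WSB by 2.12 ± 0.11 (7.24e-31) and CAST by 0.37 ± 0.12 (0.00757). In lung the F1 exceeded the mid-parent value by 0.67 ± 0.08 (5.79e-11), with 23 of 23 arrays above it and the mean at 88.3% of the way from WSB to CAST. The kidney value was 0.24 ± 0.09 (0.0311), a call that was lost without any 1 of 4 arrays (CASTxCAST kidney replicates 4, 5 and 6 and WSBxWSB replicate 11, up to 0.073) and with runs (0.112). Mx2 in the F1 of PWK and WSB lay near the middle, with means at 39.7%, 54.2% and 47.7% of the way from WSB to PWK in kidney, liver and lung.

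The same pair had other high members in liver. Ifit1 ran from 6.54 to 8.27 (median 7.57) in the F1 of CAST and WSB, above every CAST liver and overlapping WSB, and exceeded the mid-parent value by 0.92 ± 0.12 (limma adjusted p = 1.72e-09). Usp18 exceeded it by 0.35 ± 0.10 (0.00334; 0.0654 with runs as a random block), and the difference was -0.41 with the mid-parent value taken on the linear scale. Oasl2 was lower than the mid-parent value in kidney by -0.17 ± 0.07 (0.0327), a call lost with runs (0.217) and without any 1 of 3 arrays (CASTxCAST kidney replicates 9 and 10 and WSBxWSB replicate 2, up to 0.0525). Irf7 in this pair differed from the mid-parent value by 0.16 ± 0.08 in kidney, 0.23 ± 0.10 in liver and -0.06 ± 0.07 in lung, with no call.

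Ifi27, low in PWK, exceeded the mid-parent value in each F1 with a PWK parent. In the F1 of CAST and PWK the 23 kidneys ran from 8.66 to 9.69 (median 9.09), above every PWK kidney and overlapping CAST. All 23 were above the mid-parent value, by 1.01 ± 0.07 (limma adjusted p = 4.23e-23), and their mean lay at 79.3% of the way from PWK to CAST. The excess for this pair was 0.46 ± 0.07 in brain, 0.98 ± 0.08 in liver and 0.86 ± 0.05 in lung. For PWK and WSB it was 0.95 ± 0.07 in kidney (9.64e-22), 0.41 ± 0.08 in liver (4.4e-05), 0.76 ± 0.05 in lung (5.1e-23) and 0.23 ± 0.07 in brain (0.0177; 0.0908 without PWKxPWK brain replicate 1 and 0.0546 with runs). With the mid-parent value on the linear scale, which weights the high parent more, the values for CAST and PWK were 0.08 in brain, with 0.17 in kidney, 0.46 in liver and 0.21 in lung, and for PWK and WSB 0.25 in kidney and 0.23 in lung. For PWK and WSB the sign turned in brain (-0.10) and liver (-0.34). On the same linear scale Oasl2 in the F1 of CAST and PWK lay further below, at -0.66 in brain, with -0.73 in kidney, -0.81 in liver and -0.79 in lung. Among CAST and WSB crosses, whose parents are close for Ifi27, the differences were 0.18 ± 0.06 in brain (0.0225; 0.0519 with runs), 0.09 ± 0.07 in kidney, 0.13 ± 0.08 in liver and 0.10 ± 0.05 in lung.

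Reciprocal crosses, which carry the same autosomal genomes from opposite parents, gave few calls outside lung. Of 3 comparisons per member, 0 of 6 were called in brain (0.393% of all genes' comparisons), 0 of 24 in kidney (2.15%), 1 of 27 in liver (5.39%) and 6 of 27 in lung (15.9%). With limma, 0 of 6 in brain, 4 of 24 in kidney, 10 of 27 in liver and 8 of 27 in lung had an unadjusted p under 0.05. The liver call was Usp18, at 8.03 ± 0.38 (SD, n = 10) in CASTxPWK and 7.46 ± 0.50 (n = 11) in PWKxCAST, with overlapping ranges and a difference of 0.55 ± 0.14 (SE; limma adjusted p = 0.00842). In lung, Usp18 was lower in CASTxWSB (8.46 ± 0.20, n = 11) than in WSBxCAST (8.85 ± 0.18, n = 12) by -0.40 ± 0.10 (0.000948). Ifit1 went the other way for the same crosses, by 0.30 ± 0.11 (0.0286). Ifi27 and Trim30a were lower in the cross with the WSB father, by -0.22 ± 0.07 and -0.24 ± 0.08 for CASTxWSB against WSBxCAST and by -0.22 ± 0.07 and -0.32 ± 0.08 for PWKxWSB against WSBxPWK. The run block left 0 of these calls in liver and 1 in lung.

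Sex made no called difference. Female minus male, over the 9 crosses, was called by limma for 0 of 2 members in brain (0.0708% of all genes), 0 of 8 in kidney (10.9%), 0 of 9 in liver (13.8%) and 0 of 9 in lung (3.52%). At an unadjusted p under 0.05 there were 1, 0, 0 and 2 members. The differences lay between -0.08 (Trim30a in kidney) and 0.16 (Ifit1 in liver).

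The F1 difference from the mid-parent value was also compared between the sexes, by a contrast of females minus males in the same model. It was higher in females, which is less far below the mid-parent value or further above it, in 23 of 24 member comparisons in kidney, 23 of 27 in liver, 21 of 27 in lung and 2 of 6 in brain. Over all genes it was higher in females in 55.3% of comparisons in kidney, 56.4% in liver, 49.8% in lung and 44.7% in brain. The members' median was 0.26 in kidney, 0.23 in liver, 0.14 in lung and -0.06 in brain, against medians over all genes between -0.01 and 0.02. Irf7 in kidney of the F1 of CAST and PWK was at -0.32 in females and -0.87 in males, a difference of 0.55 ± 0.16 (limma adjusted p = 0.164). After adjustment limma called 0 of the members' comparisons in each tissue (0.711% of all genes' comparisons in kidney, 0.841% in liver, 3.64% in lung and 0.0118% in brain), and 9 of 24 in kidney, 5 of 27 in liver, 9 of 27 in lung and 0 of 6 in brain had an unadjusted p under 0.05. The members are correlated and the pairs share arrays, so these counts are not independent observations.

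The size of the strain differences depended on the tissue. An F-test across the 4 tissues, with the animal as a random block, was called for 27 of 27 inbred contrasts of the 9 members that passed the filter in at least 1 tissue, against 69.3% of all genes' contrasts. For the mid-parent contrasts it was called for 16 of 27, against 45.0%. The test took in values below the filter, since only Ifi27 and Oasl2 passed it in brain and Ifit1 did not pass in kidney. Over genes that pass in all 4 tissues, 6 of 6 inbred and 3 of 6 mid-parent contrasts of members were called. Among inbred contrasts, the call in single tissues changed direction for Ifit1 in all 3 pairs, for Ifi27 and Xaf1 in CAST against WSB and for Usp18 in PWK against WSB. No member was called below the mid-parent value in one tissue and above it in another for the same pair. How often all genes keep or change direction between tissues was not counted. In the F1 of PWK and WSB, Usp18, Oasl2, Irf7, Xaf1 and Trim30a were called below in 2 or more tissues each, and Ifi27 above, and the same genes met this in the F1 of CAST and PWK, which shares the PWK arrays. Oasl2 in the F1 of PWK and WSB gave no call that its mid-parent difference varied with tissue, with values from -0.59 to -0.42.

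Animals that were high in one tissue for their cross and sex were also high in another for some members. Each array was expressed as its deviation from the mean of its cross and sex, and 60 relations (10 members, 6 pairs of tissues) were examined by a two-sided permutation test with 100000 resamples within cross and sex. After adjustment over the 60, 13 were called with Pearson's r and 12 with Spearman's rho, and 23 had an unadjusted p under 0.05. Other genes were not examined in this way, so how common such relations are on these arrays is not known. For Oasl2 in kidney and lung, r was 0.61 over 93 animals (permutation p = 1e-05, the smallest possible, adjusted 0.0006), rho was 0.45 (1e-05, adjusted 0.0006), and r without the 2 animals farthest from the median was 0.47. In kidney and liver Oasl2 gave r = 0.56 over 95 animals (permutation p = 2e-05, adjusted 0.0006), rho = 0.45 (8e-05, adjusted 0.0024), and 0.44 without the 2 farthest. In liver and lung its r was 0.49 (permutation p = 0.00072, adjusted 0.00864), its rho 0.34 (0.00479, adjusted 0.0359) and its r without the 2 farthest 0.36.

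Irf7 in kidney and lung gave r = 0.40 (permutation p = 0.00051, adjusted 0.00765), rho = 0.39 (0.00044, adjusted 0.0088), and 0.35 without the 2 farthest animals. Mx2 in kidney and liver gave r = 0.41 (permutation p = 0.00011, adjusted 0.0022), rho = 0.36 (0.0008, adjusted 0.012), and 0.40 without them. Of the called relations 5 were between kidney and liver, 5 between kidney and lung, 3 between liver and lung and 0 with brain, where only Ifi27 and Oasl2 pass the filter. Ifit1 was among those called between kidney and lung, although it did not pass the filter in kidney. The median r over the 10 members was 0.28 in kidney and liver, 0.30 in kidney and lung, 0.14 in liver and lung and 0.10 to 0.16 in the pairs with brain. Ifi27 had r between -0.06 and 0.12 in the 6 pairs, and none was called. Within runs of animal numbers, 12 relations were called, of which 10 were among the 13. The others were Mx2 in liver and lung (r = 0.33 over 92 animals, permutation p = 0.00308, adjusted 0.0231) and Xaf1 in brain and kidney (r = 0.39 over 78 animals, permutation p = 0.00158, adjusted 0.0158), although Xaf1 did not pass the filter in brain.

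**Figure D5:**
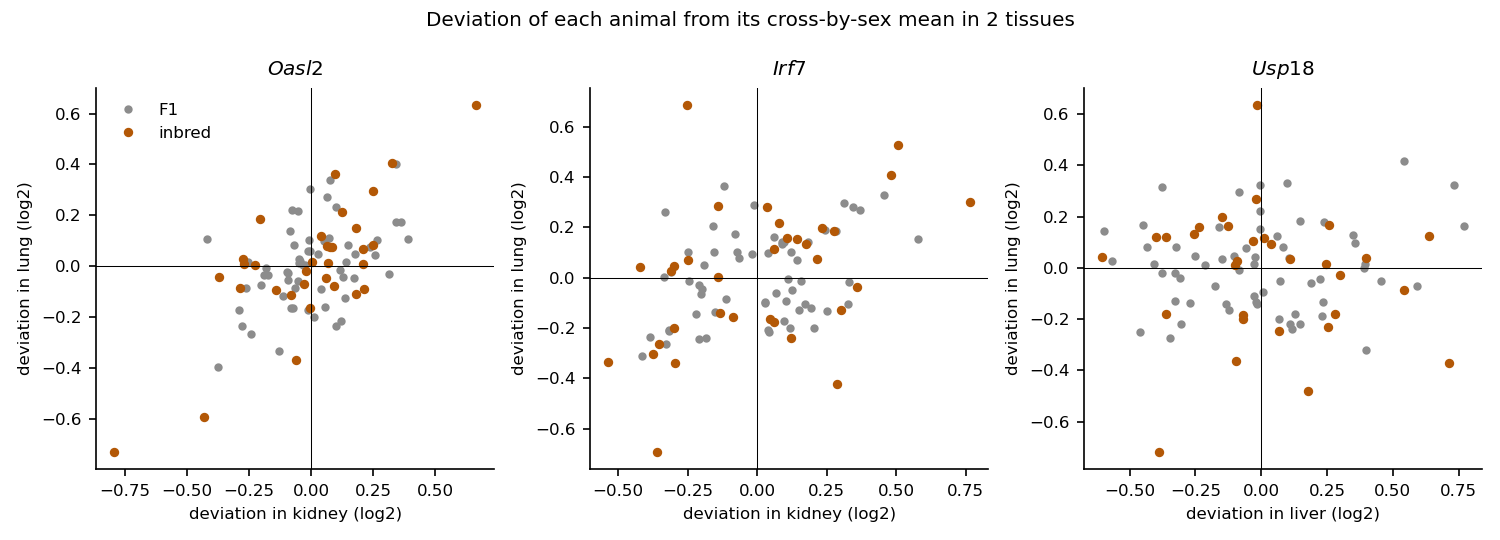
Deviation of each animal from its cross-by-sex mean in log2 units in 2 tissues (horizontal and vertical axes), for Oasl2 and Irf7 in kidney and lung and Usp18 in liver and lung; orange points are inbred and grey points F1 animals. The points rise together for Oasl2 (r = 0.61) and Irf7 (r = 0.40), while Usp18 has r = 0.03.

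Within a tissue the members also varied together. After subtraction of cross-by-sex means, the median correlation between 2 members over arrays was 0.45 in kidney (28 pairs, 102 arrays), 0.43 in liver (36 pairs, 101 arrays) and 0.42 in lung (36 pairs, 98 arrays), and 0.08 for the 1 pair in brain. Arrays share hybridisation and RNA quality, so these values are descriptive. The gene most like the members' mean was Rtp4, an interferon-induced chaperone of membrane receptors, in kidney (r = 0.72) and lung (r = 0.87), and Dhx58, a sensor of viral RNA, in liver (r = 0.77). In kidney Irf9, Ifit3, Gbp2 and Oasl1 came next (0.65 to 0.57), in liver Rtp4, Ppp1r14a, Ifit3 and Gm12250 (0.71 to 0.65), and in lung Dhx58, H2-T24, Cmpk2 and Irgm1 (0.79 to 0.72). In brain, with 2 members in the mean, the highest were Ctsz, P2ry13, Id2, Pttg1ip and Zscan21 (0.50 to 0.49). Among all genes tested, 1% had an r above 0.41 in brain and kidney, above 0.46 in liver and above 0.53 in lung.

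Few ligands reached the filter. Of 17 listed interferon genes 13 were matched, and at most 1 passed the filter in any tissue, with no call in the inbred or mid-parent contrasts. Of the 6 receptor genes 5 or 6 were tested per tissue. For PWK and WSB, the counts below and above the mid-parent value were 1 and 1 for brain, 0 and 1 for kidney, 2 and 1 for liver, and 1 and 1 for lung. Of all genes tested in this pair, 5.97% were called above in brain, with 18.6% in kidney, 8.73% in liver and 22.7% in lung.

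Among the 11 signal transduction genes tested, the F1 of PWK and WSB had 2 called below and 0 above for brain, 6 and 2 for kidney, 5 and 1 for liver, and 4 and 0 for lung. Of all genes tested in this pair, 4.04% were called below in brain, with 18.8% in kidney, 8.31% in liver and 14.5% in lung. Irf9, a DNA-binding transcription factor of the pathway, was lower by -0.27 ± 0.06 in brain (limma adjusted p = 0.00081), and Stat2 by -0.33 ± 0.04 in lung (2.24e-09). Irf5 was higher by 0.59 ± 0.07 in liver (9.09e-10). Of the sensors and adaptors, 2 of 8 were called below in brain, 4 of 10 in kidney, 1 of 11 in liver and 6 of 13 in lung, with 0, 0, 1 and 0 above. Of the genes that restrain the pathway, 2 of 11, 1 of 12, 3 of 13 and 3 of 13 were below in these tissues, with 0, 2, 1 and 2 above.

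The other interferon-stimulated genes, 40 of 45 listed, moved with the members in part. In liver CAST was called below PWK in 22 and above it in 2 of 29 (26.3% and 23.8% of all genes), with a median difference of -0.62 against -0.01 over all genes. CAST was called below WSB in 25 and above it in 0 of 29 (25.3% and 31.7%), with a median of -0.77 against 0.04. In the F1 of PWK and WSB, 5 of 11 were called below the mid-parent value in brain, 9 of 26 in kidney, 8 of 29 in liver and 7 of 26 in lung, and 0, 7, 1 and 3 above. Of all genes tested in this pair 4.04%, 18.8%, 8.31% and 14.5% were called below in these tissues. The shares called above were 5.97%, 18.6%, 8.73% and 22.7%. The medians of the listed genes were -0.10, -0.05, -0.11 and -0.04. Among CAST and PWK crosses, 14 of 26 were below in kidney and 0 above (16.6% and 17.1% of all genes). In liver 4 of 29 were below and 0 above (11.3% and 7.34%). In lung 8 of 26 were below and 0 above (9.43% and 10.1%). Among them Rsad2, which encodes viperin, was lower by -1.28 ± 0.13 in lung (limma adjusted p = 1.25e-12) and Sp100, a nuclear body protein, by -0.42 ± 0.05 in kidney (1.05e-11). For CAST and WSB, 10 of 29 were above in liver and 1 below (13.8% and 11.5% of all genes).

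Macrophage markers also differed from the mid-parent value in some comparisons. In the F1 of PWK and WSB, 7 of 10 were called below the mid-parent value in liver and 0 above. The markers' median was -0.19, and the share of all genes called below in liver was 8.31%. There the mean of the 10 markers ran from 9.11 to 9.60 in PWK, from 9.42 to 9.75 in WSB, from 8.99 to 9.43 in PWKxWSB and from 9.05 to 9.44 in WSBxPWK. In kidney of this pair 2 of 9 were below and 2 above, with a median of 0.10. Of all genes 18.8% were below and 18.6% above there. For CAST and PWK, 5 of 10 were below in liver, 5 of 9 in kidney and 6 of 9 in lung, with 0, 0 and 1 above. The shares of all genes called below in that pair were 11.3% in liver, 16.6% in kidney and 9.43% in lung. All 10 markers passed the filter in liver and 9 of the 10 in brain, kidney and lung. Their part in the results was not tested. Of plasmacytoid dendritic cell markers 3 of 6 matched were tested per tissue, and in the F1 of PWK and WSB 0 were called below and 2 above for brain, 2 and 0 for kidney, 1 and 0 for liver, and 0 and 1 for lung. Of all genes tested in this pair, 4.04% were called below and 5.97% above in brain, and 18.8% and 18.6% in kidney. The shares were 8.31% and 8.73% in liver, and 14.5% and 22.7% in lung. T cell markers in lung were above the mid-parent value in 4 of 4 tested in this pair, with a median of 0.33. Their part in the results was not tested either.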

How the data were processed

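Values analysed were the log2 signals per transcript cluster that the authors deposited for 386 arrays. Robust multi-array averaging (RMA) and the software Affymetrix Expression Console are listed, with no version, per the submitters' processing notes. Joint normalisation of the tissues and masking of probes over strain variants are not given in the sources used here. Of 35556 clusters, 21218 had 1 gene symbol in the platform annotation, and 21185 of these matched the gene table. The highest cluster per symbol gave 18820 genes. The array's build is not named, so gene coordinates are not printed, except for promoter windows of GRCm38.p6.

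Linear models were fitted with limma 3.58.1 under R 4.3.3, with eBayes and a mean trend, on 18 cross-by-sex means per tissue, with sexes weighted equally. The fit across tissues used 72 means and the animal as a random block over 13774 genes, with a block correlation of 0.029. Tested on data simulated for kidney, the fit called 200 of 200 genes shifted by -0.5 in the F1 of PWK and WSB. Among the unshifted rest of the 11292 genes it made 16 false calls. An effect of runs of animal numbers was not tested there. On the arrays, 15 of 45 mid-parent calls were lost with the run as a random block. The comparison of mid-parent differences between sexes was added after the values of each sex were seen. The number of arrays limits the precision. P-values measure the spread between animals, of which littermates may be part. Replicate numbers follow the order of records and pair nothing.

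All 10 members are named. Of each gene list, up to 2 called genes with the smallest p per tissue and family of comparisons may be named, and per tissue the 5 genes most correlated with the members' mean. The members, lists and tests were chosen with earlier results of these data known. Listed genes that matched no single-symbol cluster were not analysed here.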

Additional observations from a re-analysis of the deposited data

Results flagged for a closer look

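Single arrays stood apart from their group in 7 of 130 groups of 4 to 10 arrays, with a gap to the nearest array that was large for the group's range. Chance gives such a gap in about 1 in 20 groups. In brain, Ifi27 in CASTxPWK replicate 4 was 7.23, with the others between 7.51 and 7.83. Irf7 in CASTxWSB brain replicate 3 was 5.79, with the others between 4.95 and 5.34. For Xaf1, PWKxCAST brain replicate 2 was at 5.13 and the others at 5.61 to 6.06. For Ifit1, PWKxPWK brain replicate 5 was at 3.67 and the others at 4.55 to 4.97. In liver, Irf7 in CASTxPWK replicate 4 was 7.11, against 7.67 to 8.18, and Bst2 in CASTxPWK replicate 6 was 9.45, against 9.90 to 10.41. In lung, Ifit1 in CASTxPWK replicate 4 was 7.12, against 7.53 to 7.93.

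In what follows the lowest and highest tissue are given for each contrast, members below the filter in a tissue included. The log2 difference between inbred strains depended on the tissue by limma's F-test for 27 of 27 contrasts (69.3% over all genes). For Ifi27 this held for CAST minus PWK (from 2.18 in brain to 3.42 in kidney, adjusted p = 6.47e-14), CAST minus WSB (from -0.58 in liver to 0.34 in lung, adjusted p = 5.39e-13) and PWK minus WSB (from -3.19 in liver to -2.03 in brain, adjusted p = 4.33e-14). Usp18 varied in CAST minus PWK (from -2.48 in liver to -0.44 in brain, adjusted p = 5e-19), CAST minus WSB (from -3.24 in liver to -0.72 in kidney, adjusted p = 2.22e-36) and PWK minus WSB (from -0.78 in brain to 0.59 in kidney, adjusted p = 8.75e-13). For Oasl2 this held for CAST minus PWK (from -2.66 in lung to -1.77 in liver, adjusted p = 8.91e-11), CAST minus WSB (from -2.17 in lung to -0.73 in kidney, adjusted p = 9.07e-24) and PWK minus WSB (from 0.14 in brain to 1.07 in kidney, adjusted p = 2.42e-08). Irf7 varied in CAST minus PWK (from -2.11 in kidney to -1.09 in brain, adjusted p = 2.12e-06), CAST minus WSB (from -1.98 in liver to -0.98 in kidney, adjusted p = 1.28e-08) and PWK minus WSB (from -0.11 in brain to 1.14 in kidney, adjusted p = 4.17e-13). For Xaf1 this held for CAST minus PWK (from -1.66 in liver to -0.57 in brain, adjusted p = 2.5e-09), CAST minus WSB (from -0.70 in liver to 0.38 in kidney, adjusted p = 8.15e-15) and PWK minus WSB (from 0.64 in brain to 1.43 in kidney, adjusted p = 2.48e-07). Mx2 varied in CAST minus PWK (from -0.68 in kidney to 0.15 in brain, adjusted p = 0.00191), CAST minus WSB (from 1.20 in brain to 1.75 in liver, adjusted p = 0.0127) and PWK minus WSB (from 1.04 in brain to 2.13 in lung, adjusted p = 8.36e-07). For Bst2 this held for CAST minus PWK (from -1.42 in lung to -0.16 in brain, adjusted p = 4.57e-20), CAST minus WSB (from -0.74 in kidney to -0.03 in brain, adjusted p = 8.3e-08) and PWK minus WSB (from -0.01 in liver to 0.73 in lung, adjusted p = 3.95e-10). Trim30a varied in CAST minus PWK (from -1.50 in kidney to -1.0 in brain, adjusted p = 0.00139), CAST minus WSB (from -1.18 in lung to -0.53 in brain, adjusted p = 9.69e-10) and PWK minus WSB (from 0.22 in lung to 0.55 in liver, adjusted p = 0.0462). For Ifit1 this held for CAST minus PWK (from -1.06 in kidney to 0.34 in lung, adjusted p = 2.15e-10), CAST minus WSB (from -2.09 in liver to 0.73 in lung, adjusted p = 5.65e-31) and PWK minus WSB (from -1.03 in liver to 0.95 in kidney, adjusted p = 1.94e-17).

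The F1 difference from the mid-parent value depended on the tissue by the same limma test for 16 of 27 comparisons (45.0% over all genes). Without the animal block the count was 12 of 27, and with each array's median subtracted 14 of 27. The values of Ifi27 varied in the F1 of CAST and PWK (from 0.46 in brain to 1.01 in kidney, adjusted p = 7.41e-06) and PWK and WSB (from 0.22 in brain to 0.95 in kidney, adjusted p = 9.88e-12). Usp18 varied in the F1 of CAST and PWK (from -0.63 in kidney to -0.21 in liver, adjusted p = 0.0317), CAST and WSB (from -0.23 in kidney to 0.35 in liver, adjusted p = 0.000117) and PWK and WSB (from -0.79 in liver to -0.24 in lung, adjusted p = 0.00234). The values of Oasl2 varied in the F1 of CAST and PWK (from -0.56 in liver to -0.25 in lung, adjusted p = 0.0467). Irf7 varied in the F1 of CAST and WSB (from -0.30 in brain to 0.23 in liver, adjusted p = 0.000425) and PWK and WSB (from -0.70 in brain to -0.37 in kidney, adjusted p = 0.0448). The values of Mx2 varied in the F1 of CAST and PWK (from -0.42 in kidney to 0.08 in liver, adjusted p = 0.00705) and CAST and WSB (from 0.24 in kidney to 1.25 in liver, adjusted p = 3.69e-13). Bst2 varied in the F1 of CAST and PWK (from -0.17 in brain to 0.16 in lung, adjusted p = 0.00814) and PWK and WSB (from -0.24 in brain to 0.05 in lung, adjusted p = 0.0439). The values of Trim30a varied in the F1 of PWK and WSB (from -0.35 in liver to -0.02 in lung, adjusted p = 0.00653). Ifit1 varied in the F1 of CAST and PWK (from -0.50 in kidney to 0.28 in liver, adjusted p = 0.000198), CAST and WSB (from -0.10 in kidney to 0.92 in liver, adjusted p = 1.5e-09) and PWK and WSB (from -0.74 in kidney to -0.28 in liver, adjusted p = 0.0442).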

How the results depend on the processing

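Counts of called members are given with their main value in brackets, and the cause of each move was not tested unless fewer genes were tested by construction. Without the filter, brain had 18 inbred calls (4), 9 below the mid-parent value (2) and 2 below both parents (1), more members being tested. With the filter at the 60th percentile, which tests fewer members, kidney had 3 inbred calls (24) and 0 below the mid-parent value (12), liver 15 (24) and 5 (8), and lung 0 below both parents (2), and in brain no member was left. With the run as a random block, calls below the mid-parent value numbered 7 in kidney (12) and 4 in lung (9), calls above it 1 in brain (3), calls below both parents 1 in liver (3) and 1 in lung (2), and reciprocal calls 0 in liver (1) and 1 in lung (6). Of 79 single inbred calls 2 were lost with this block, and of 45 single mid-parent calls 15. Females alone gave calls below the mid-parent value of 1 in brain (2), with 2 in kidney (12), 5 in liver (8) and 5 in lung (9), 1 above it in brain (3), and 0 below both parents in liver (3) and lung (2). Males alone gave 11 below the mid-parent value in kidney (12), 10 in liver (8) and 9 in lung (9), 1 above in brain (3), 3 above in liver (5) and 1 below both parents in kidney (0). With WSB or PWK, the second strain of the pair, as the only dam, lung had 5 above (3) and 1 below both parents (2). Lung also had 5 above (3) with each array's median subtracted, and liver had 3 reciprocal calls (1) with array weights. Over the genes that pass the filter in all 4 tissues, 6 of 6 inbred and 3 of 6 mid-parent contrasts depended on the tissue. Leaving out 1 of 127 inbred arrays in turn moved the calls above the mid-parent value in kidney between 2 (without CASTxCAST replicate 4) and 5 (without CASTxCAST replicate 3), and every other count stayed within 1.5 times its main value. The sign turned for Ifi27 in the F1 of PWK and WSB on the linear scale (-0.10 in brain, -0.34 in liver), for Usp18 in the F1 of CAST and WSB in liver on that scale (-0.41), and for Trim30a in the F1 of CAST and PWK in kidney in females alone (0.03). The remaining alternatives (an additive model, a robust variance without a trend, no animal block, and the arrays with Xist or Y-linked signal against the labelled sex left out) changed no count by more than 1.5 times. A second cluster per member could not be tried, since each has 1. No paired analysis was possible because each animal belongs to 1 cross and replicate numbers follow the order of records, and between tissues the animal served as a block. The number of arrays and the low signals in brain limit what could be called.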
